A study of Drosophila melanogaster with 8 samples.

Results

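The regions described here are stretches of the *Drosophila melanogaster* genome in which a peak was called in all 4 Cph NanoDam libraries and in none of the 4 NanoDam-only control libraries, referred to as Cph-only regions. They were chosen by these peak calls, from the 8 lists called without a control, as runs of 200 bp or more with no interruption. This gave 312 regions with a total length of 83097 bp. Counting every run of 200 bp or more that peaks of the 4 Cph libraries shared, with or without control peaks, there were 19972 such stretches and 311 of them held a Cph-only region, so that 1.56% of these stretches held a Cph-only region. The same rule with the groups exchanged gave 468 control-only regions, in 465 of 19292 stretches (2.41%). The minimum length weighed on the groups unequally, as at 100 bp there were 434 Cph-only and 808 control-only regions. The calls that chose the regions are the readout itself, so their number, lengths and enrichments are given as a description without a test.

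The libraries came from a study of intestinal stem cells and of the transcription factor Cph in the fly midgut. In the Cph NanoDam group, flies carried CphYFP, UAS-NanoDam and the esgTS driver. In the NanoDam-only control, flies carried UAS-NanoDam and esgTS but no tagged Cph, so both groups shared the methylase and the driver and differed in the tagged protein. Each group had 4 biological replicates of 30 pooled midguts from adults aged 3 to 5 days, reared at 18 °C and kept at 29 °C for 17 h before dissection. Replicates 3 and 4 of both groups carry the label batch 2, while replicates 1 and 2 carry no batch label. The driver is active in the progenitor cells of the midgut, whereas DNA was extracted from whole midguts.

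Cph (Chronophage) is a zinc finger transcription factor and the fly relative of the mammalian BCL11 proteins. In NanoDam, a nanobody that recognises YFP brings the bacterial Dam methylase to the tagged protein, and adenines in nearby GATC sequences become methylated. Methylated sites are cut by DpnI, amplified and sequenced, so that the signal marks DNA close to the tagged protein on top of methylation by untethered NanoDam, which favours open chromatin and is what the control records.

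The sequences of a few Cph-only regions are printed to show the sequences behind the results that follow, read from the release 6 genome assembly on the plus strand, with GATC sites in capitals. The first had the highest enrichment that all 4 Cph libraries shared. The second lies in a copy of the retrotransposon 297 inside *Sema1a*, a recurrent element among the regions. The third lies beside a start of *sim*, the fourth in a coding exon of *wls*, where the middle of the region is shown, and the fifth in an intron of *Cph* itself. The sixth, in *shep*, was among the regions farthest from any control peak and holds no GATC.
chr3L:18209730-18209964: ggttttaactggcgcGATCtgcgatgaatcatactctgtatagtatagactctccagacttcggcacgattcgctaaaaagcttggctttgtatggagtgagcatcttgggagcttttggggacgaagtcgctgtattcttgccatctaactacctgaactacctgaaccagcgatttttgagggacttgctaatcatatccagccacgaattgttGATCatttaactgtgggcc
chr2L:8596133-8596341: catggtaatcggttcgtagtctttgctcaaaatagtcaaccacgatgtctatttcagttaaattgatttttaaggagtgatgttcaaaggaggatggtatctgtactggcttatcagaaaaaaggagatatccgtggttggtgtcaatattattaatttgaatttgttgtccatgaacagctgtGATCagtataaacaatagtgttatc
chr3R:13062254-13062482: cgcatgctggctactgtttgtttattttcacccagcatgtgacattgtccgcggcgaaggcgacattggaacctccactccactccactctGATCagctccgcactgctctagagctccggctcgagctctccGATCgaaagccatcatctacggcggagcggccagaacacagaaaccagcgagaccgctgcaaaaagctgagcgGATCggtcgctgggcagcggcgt
chr3L:11168565-11168864: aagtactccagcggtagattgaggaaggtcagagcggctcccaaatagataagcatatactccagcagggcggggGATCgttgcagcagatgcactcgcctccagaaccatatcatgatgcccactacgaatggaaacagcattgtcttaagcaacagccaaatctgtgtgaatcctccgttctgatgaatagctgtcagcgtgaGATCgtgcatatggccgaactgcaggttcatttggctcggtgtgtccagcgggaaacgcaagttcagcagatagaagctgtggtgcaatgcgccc
chrX:7192009-7192248: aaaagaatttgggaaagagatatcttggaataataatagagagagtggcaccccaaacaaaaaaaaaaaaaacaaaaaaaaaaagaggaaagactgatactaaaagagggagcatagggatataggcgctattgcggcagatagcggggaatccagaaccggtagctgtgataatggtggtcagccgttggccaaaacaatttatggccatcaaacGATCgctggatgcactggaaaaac
chr3L:5209892-5210100: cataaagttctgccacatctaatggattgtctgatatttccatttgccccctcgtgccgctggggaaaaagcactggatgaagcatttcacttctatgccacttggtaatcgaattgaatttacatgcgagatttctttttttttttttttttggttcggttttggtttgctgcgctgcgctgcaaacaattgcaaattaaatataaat

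For each library, MACS2 had recorded 55557571 to 125721243 reads, and the control library was deeper than the Cph library in each of the 4 pairs of replicates, by a factor of 1.14 to 1.31. Depth and group therefore cannot be told apart. Between 24779 and 30062 peaks were called per library, and their share of the assembly was 9.87 to 12.6% for Cph NanoDam and 11.3 to 13% for the control. The lists hold peaks and no reads per position, so a control library without a peak may still have had signal below the calling threshold. Bound DNA does not by itself show which cells it came from, but the paper restricted NanoDam expression to progenitor cells through the driver. *esg*, the progenitor gene whose driver was used, and its 3000 bp upstream had 34.4 to 45.4% of their bases in Cph peaks and 39.2 to 41.0% in control peaks. For *Delta*, the Notch ligand gene that marks stem cells, the shares were 21.8 to 31.5% and 33.8 to 40.6%, lower in every Cph library than in any control library. For *pros*, a marker of enteroendocrine cells, they were 5.27 to 7.69% and 6.22 to 8.84%, and for *nub*, a marker of enterocytes, 4.31 to 7.73% and 6.37 to 8.20%.

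Cph-only regions were short and were held by peaks of modest enrichment. Their lengths ranged from 203 to 808 bp, with a median of 227 bp, against a median of 350 bp over all stretches in the 4 Cph lists. Fold enrichment, the ratio of a peak's pileup to the local background of the same library, is given for the whole peak that holds a region. Its median over the 312 regions was 2.20 in Cph replicate 1, 2.50 in replicate 2, 2.39 in replicate 3 and 2.26 in replicate 4. Over all stretches it was 2.89, 3.26, 3.34 and 3.00, so the median of Cph-only regions was lower in each of the 4 libraries. Within its own list, the median peak holding a Cph-only region was at percentile 44.4, 43.1, 39.3 and 38.5 of all peaks by fold enrichment. The pileup, scaled to 1000000 reads, had medians of 5.99, 7.20, 5.55 and 5.75, compared with 7.70, 9.79, 8.76 and 8.15 over all stretches.

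**Figure D1:**
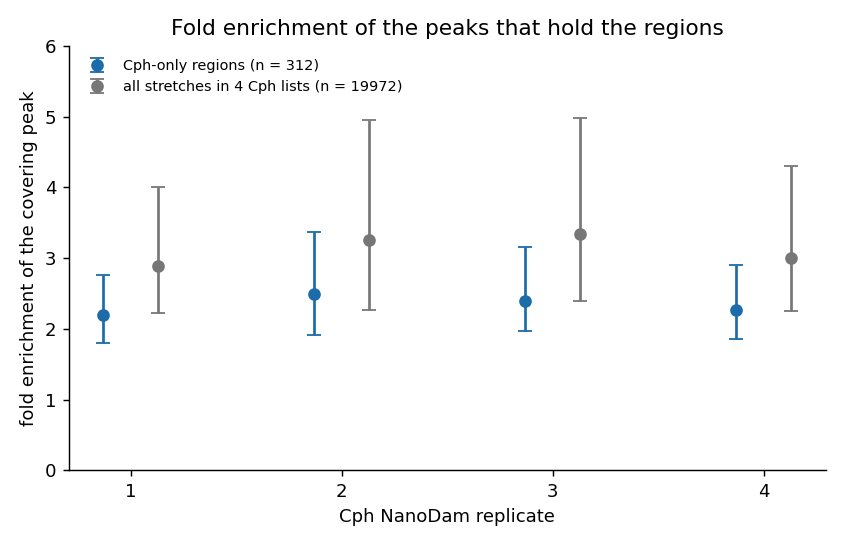
Fold enrichment over the local background (linear axis) of the peak that holds each region, in the 4 Cph NanoDam replicates. Points are medians and bars the quartiles over regions, for the 312 Cph-only regions (blue) and all 19972 stretches in the 4 Cph lists (grey); the blue medians lie between 2.20 and 2.50 and the grey ones between 2.89 and 3.34.

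Many regions had the size of the smallest peak that the caller allows. MACS2 keeps a broad peak only if it is at least as long as its fragment length estimate, which was 215, 248, 209 and 212 bp in Cph replicates 1 to 4. Of the Cph-only regions, 62, 56, 56 and 71 lay in a peak of exactly this length in the respective list, which is 17.9 to 22.8% of them, against 4.57 to 7.43% of all stretches. Over all peaks of the 4 lists, 14.2 to 16.8% had exactly this length. A length of exactly 209 bp was found for 83 regions (26.6%, against 8.97% of all stretches and 0.855% of control-only regions), and 142 regions (45.5%, against 19.3%) were no longer than 220 bp. The fragment length estimates of control replicates 1 to 4 were 226, 231, 194 and 198 bp. A length of 209 bp is thus no minimum in the control lists, and its share among control-only regions is not a like comparison. Among the 994 stretches of any length that fulfilled the rule on the libraries, 682 were under 200 bp. The 3 shortest regions kept were 203 bp (3R, from 15679146), 204 bp (3L, from 1933165) and 205 bp (2R, from 13861502), and the 3 longest left out were 199 bp (3R, from 2929793), 199 bp (3R, from 27949067, beside *Gp93*) and 197 bp (2R, from 22063710).

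Most regions lay within 500 bp of a control peak. How far arbitrary positions of the assembly lie from control peaks was not measured. A control peak began directly at the edge of 110 regions (35.3%), and 14 of these were enclosed by control peaks on both sides. Among the 110, the adjoining peak was present in 1 control library in 65 cases, in 2 libraries in 16, in 3 libraries in 9 and in all 4 in 20. A further 33 regions (10.6%) had a gap to the nearest control peak but shared a block of Cph peaks with it. The remaining 169 regions (54.2%), in 168 blocks, belonged to Cph peaks that no control peak overlapped, and are referred to as isolated. The distance to the nearest control peak had a median of 408 bp over all regions and of 1241 bp over the isolated ones. It was at most 500 bp for 168 regions, at most 1000 bp for 210 and over 10000 bp for 3. Measured to each control library separately, the median distance was 627, 658.5, 687 and 595.5 bp for control replicates 1 to 4.

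Regions that adjoined a control peak were longer, with a median of 281 bp, than the isolated ones, with 212 bp, and the peaks that held them were more enriched. The medians were 2.53, 2.79, 2.76 and 2.77 in Cph replicates 1 to 4 for adjoining regions, and 2.03, 2.39, 2.31 and 2.1 for isolated ones. The enrichment is that of the whole Cph peak, which can extend beyond the region. Of the 468 control-only regions, 316 (67.5%) adjoined a Cph peak and 107 (22.9%) were isolated. The smallest peaks allowed were 194 and 198 bp in control replicates 3 and 4, and 209 bp or more in the Cph lists. The minimum of 200 bp thus leaves out the smallest control peaks but not the smallest Cph peaks. These shares are therefore not a like comparison between the groups.

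**Figure D2:**
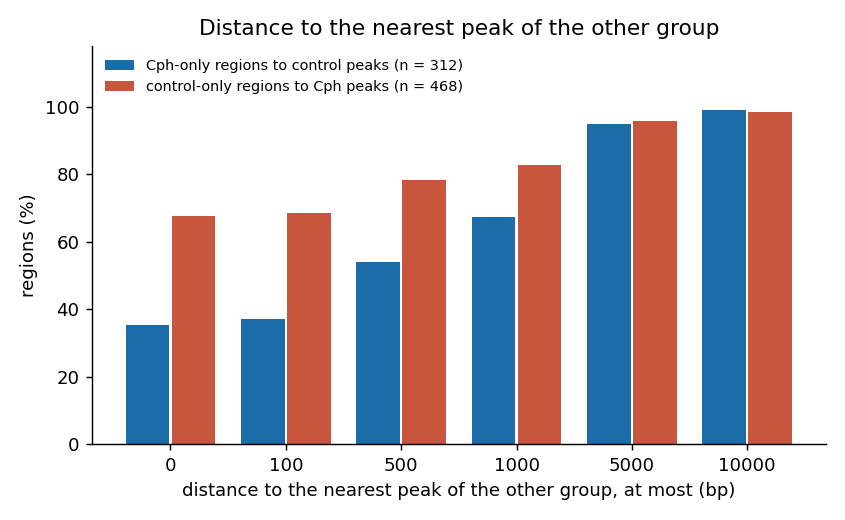
Share of regions (y axis, %) whose nearest peak of the other group lies within the distance on the x axis (bp, cumulative), for 312 Cph-only regions to control peaks (blue) and 468 control-only regions to Cph peaks (red). At a distance of 0, 35.3% of Cph-only and 67.5% of control-only regions adjoin such a peak. Within 5000 bp both bars are at about 95%, 94.9% and 95.7%. The minimum length of 200 bp leaves out the smallest peaks of control replicates 3 and 4 but of no Cph library, so the groups are not a like comparison.

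Around the centres of the Cph-only regions, the peaks of both groups soon reached similar levels. At 500 bp from the centre, 22.4, 17.1, 19.6 and 22.1% of positions were in peaks of Cph replicates 1 to 4, and 16.8, 17.9, 14.4 and 16.0% in peaks of control replicates 1 to 4. At 1000 bp the shares were 20.0, 15.5, 16.5 and 18.6% for the Cph libraries and 19.1, 18.8, 17.6 and 17.9% for the control libraries, and the 2 groups overlapped at both distances. Each of these shares was above the 9.87 to 13% of the assembly that the libraries' peaks cover.

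**Figure D3:**
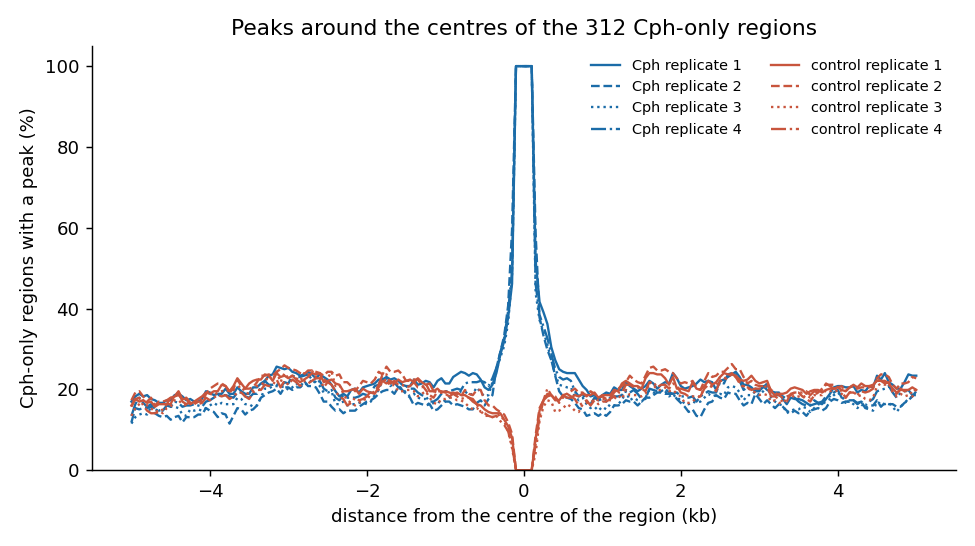
Share of the 312 Cph-only regions with a peak (y axis, %) at each distance from the region's centre (x axis, kb), for each Cph (blue) and control (red) library. The value of 100% for Cph and 0% for control at the centre is set by the rule; at 1 kb, averaged over both sides, the 8 libraries lie between 15.5 and 20.0%.

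The 11 regions of at least 500 bp were spread over 5 chromosome arms. The longest, of 808 bp on 3R from 26003098 to 26003905, lay between genes near *lncRNA:CR45038*, with fold enrichments of 1.49, 1.69, 1.86 and 1.95 in Cph replicates 1 to 4. The region of 562 bp on 3L (11168434 to 11168995) was in a coding exon of *wls*, which encodes Wntless, the carrier that brings Wnt proteins to the cell surface. Its values were 3.11, 4.09, 3.78 and 1.61, and the nearest control peak was 1477 bp away. A region of 581 bp on X (2372182 to 2372762) in the 3′ UTR of *PsGEF* had values of 1.33, 1.55, 1.63 and 1.40. The enrichment of long regions thus ranged widely, with 3.90, 4.68, 4.41 and 3.91 at the region of 592 bp in an intron of *CG11030* (2L, 5744287 to 5744878).

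*Tie*, which encodes a receptor tyrosine kinase, held 2 regions on 3L, of 518 bp in an intron (4515183 to 4515700) and of 272 bp in a coding exon (4513491 to 4513762), both isolated. Fold enrichments were 2.17, 1.38, 1.67 and 1.95 at the longer region and 1.60, 1.86, 2.16 and 1.86 at the shorter. The other long regions were in *SelG*, *CG7530* upstream of *kibra*, a regulator of Hippo signalling, in *Fpps*, which encodes farnesyl pyrophosphate synthase, and *hdly*, and on X near the chromosome end (58811 to 59344). A region of 548 bp in *ph-d*, a Polycomb group gene that lies next to its close copy *ph-p*, had only 21.6% of its read-length windows unique in the assembly, so reads from the copies may not be separable there. Of the 11, 5 adjoined a control peak and 6 were isolated.

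The region with the highest enrichment shared by all 4 Cph libraries was isolated and intergenic. It spans 235 bp on 3L (18209730 to 18209964), 8353 bp from the nearest start, that of *CG7320*, with 3616 bp to the nearest control peak and 2 GATC sites. Its peaks had fold enrichments of 11.6, 12.8, 12.0 and 8.11 in Cph replicates 1 to 4. Called over the control of the same replicate, the values were 11.6, 12.0, 12.0 and 8.11. In replicates 1, 3 and 4 these are the same values to the digits given, so they are no separate reading. A region of 378 bp on 3L (14956524 to 14956901), also between genes, reached 7.90, 8.62, 11.9 and 8.99 and adjoined a control peak. On X (17335596 to 17335818), an isolated region of 223 bp, whose nearest start was that of the homeobox gene *B-H2* at 21126 bp, had values of 4.62, 4.21, 5.91 and 4.29. These 3 regions were called over the control in all 4 replicates.

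Of the other 7 most enriched regions, 6 adjoined a control peak. At *sim*, which encodes a bHLH-PAS transcription factor of the nervous system midline, a region of 229 bp on 3R (13062254 to 13062482) lay in an intron, 154 bp upstream of a further start. Its peaks reached 6.03 and 6.97 in replicates 1 and 2 and 15.6 and 20.6 in replicates 3 and 4, a split that follows the batch label. It adjoined a control peak, and a peak over the control was called in replicate 2 alone, at 2.56. At *Bsg*, which encodes the membrane glycoprotein Basigin, and at the cytochrome P450 gene *Cyp6t1*, values of 4.35 to 5.66 and of 4.19 to 5.84 were accompanied by 0 peaks over the control. The zinc finger gene *dati* on chromosome 4 held 2 regions in 1 Cph peak (6.30, 7.77, 6.34 and 5.23), parted by a control peak. *CG14855* (10.3, 10.4, 6.76 and 7.23) also adjoined a control peak, and the exception, a region in *heca* with 6.58, 14.0, 7.27 and 7.16, overlapped a copy of the retrotransposon roo.

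Among the 10 regions farthest from any control peak, 4 lay in copies of 297, a long terminal repeat retrotransposon. The farthest was a region of 209 bp in an intron of *CG31677* (2L, 20603349 to 20603557), 17842 bp from a control peak, with fold enrichments of 1.95, 2.73, 2.20 and 1.89. The next was a region of 209 bp in an intron of *shep* (3L, 5209892 to 5210100), a gene for an RNA-binding protein, at 17691 bp, with 2.09, 5.50, 3.90 and 3.51. A region of 212 bp on 2L (5699705 to 5699916), at 15704 bp and closest to the start of *CG7236*, had 3.31, 3.83, 3.42 and 2.32. None of these 3 was in an annotated element, and all of their read-length windows were unique. The remaining 3 of the 10 were in the non-coding RNAs *lncRNA:CR44518* (8850 bp) and *lncRNA:CR43314* (8778 bp) and in the 5′ UTR of *CG7720* (7280 bp).

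The regions in 297 were on *Sema1a* (9258 bp from a control peak), *CARPB* (8772 bp), *Myo81F* (8478 bp) and *Ptp10D* (8290 bp), in introns of these genes. In all, 14 Cph-only regions lay in 297, on 5 chromosome arms, and 13 of them were 209 bp long. Aligned without gaps, 10 of these had 99.0 to 100% of bases in common with the *Sema1a* copy printed above, 3 of them all bases, while the lowest share among the 13 was 68.9%. For 9 of the 14, no window of 86 bases, the read length before trimming, was unique in the assembly. These regions therefore share their sequence and are not separate observations. The median fold enrichment over the 14 was 2.01, 2.41, 2.68 and 1.98 in Cph replicates 1 to 4.

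Stretches sharing at least 1 read-length window with these regions were found at 33 places, all of them in annotated copies of 297. Of these places, 28, 28, 29 and 22 had a peak in Cph replicates 1 to 4, and 7, 2, 0 and 4 in control replicates 1 to 4. The libraries had themselves chosen 14 of the places, and the others were found through sequence shared with these. Copies of 297 without such sequence were not counted, so the counts are a description. A peak in all 4 Cph libraries was found at 22 places, in 8 of which a control library also had one. The authors kept uniquely mapped reads, and how reads came to be assigned to repeated windows was not tested. Whether the flies of the 2 groups carry the same copies was not tested.

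**Figure D4:**
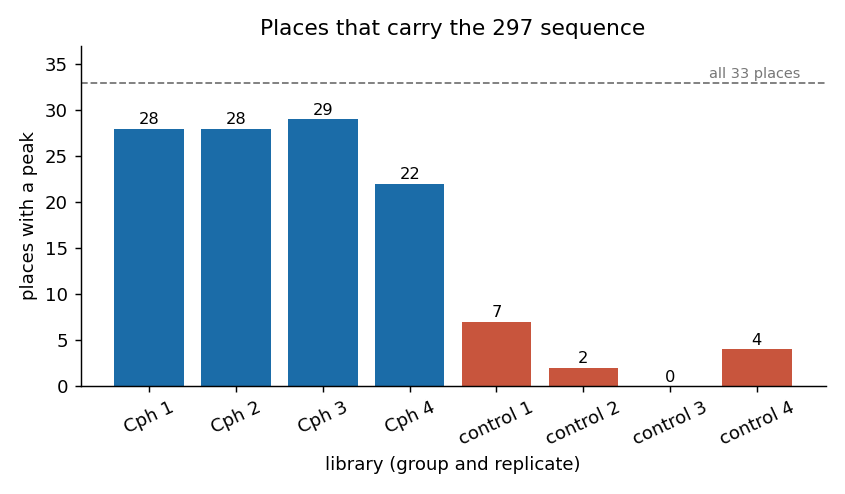
Number of the 33 places with the 297 sequence (dashed line) that had a peak in each library, in the 4 Cph (blue) and 4 control (red) replicates. Cph libraries had peaks at 22 to 29 places and control libraries at 0 to 7; 14 of the places are Cph-only regions, which the same calls selected.

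Other elements were represented by fewer regions. In total 34 Cph-only regions (10.9%) overlapped an annotated transposable element, of 13 families, compared with 5.61% of all stretches and 47 of the 468 control-only regions. Rt1a, a non-LTR retrotransposon, held 5 regions, all isolated and with no unique window, with median fold enrichments of 2.81, 2.45, 2.48 and 2.62. INE-1 and roo held 3 regions each. Sequence repeated at the read length was present in 39 regions (12.5%), in 8.17% of all stretches and in 22.2% of control-only regions, so repeats were more frequent in control-only than in Cph-only regions. No 297 copy was among the control-only regions, where jockey, with 8, was the element found most.

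Introns were the most frequent location of Cph-only regions. By the position of their centres, 142 (45.5%) were in introns, 76 (24.4%) in coding exons, 63 (20.2%) between genes, 13 in 5′ UTRs, 10 in exons of non-coding RNAs and 8 in 3′ UTRs. Over all stretches in the 4 Cph lists, 32.9% were in introns, 41.5% in coding exons and 15% between genes, so introns took a larger and coding exons a smaller share among Cph-only regions. Control-only regions had 32.7% in introns, 25.2% in coding exons and 32.1% between genes. Without elements and repeated sequence, 269 Cph-only regions were left, of which 45.7% were in introns and 27.1% in coding exons, against 32.7 and 44.8% of all stretches treated likewise. The isolated regions were between genes in 25.4% of cases and the adjoining ones in 14.5%. The regions were on all chromosomes, with 55 on 2L, 54 on 2R, 61 on 3L, 74 on 3R, 3 on chromosome 4, 64 on X and 1 on Y.

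The regions were about as near to transcription starts as other Cph stretches, but few contained a start. A start of any gene lay within 3000 bp of the centre for 199 regions (63.8%), against 66.9% of all stretches, and within 1000 bp for 106 (34.0%), against 37.9%. The median distance was 1840 bp, against 1589 bp, and 33.7% of the regions were upstream of the nearest start. A start of a protein-coding gene lay inside 11 regions (3.53%), against 8.85% of all stretches, which are longer. Of the 169 isolated regions 58.6% were within 3000 bp of a start, and of the 110 adjoining ones 70.9%.

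The longest regions with a protein-coding start were at *kat-60L1*, which encodes a katanin-like microtubule severing protein (397 bp, fold enrichments of 2.22, 1.43, 1.44 and 1.88), at *CG13654* (383 bp; 2.81, 2.51, 2.00 and 2.64), *CG14995* (347 bp; 2.37, 3.89, 2.17 and 2.23), *CG7720* (302 bp; 2.15, 2.85, 2.34 and 2.14), *CG4004* (276 bp; 3.11, 3.28, 4.24 and 3.29) and *Pngl*, an enzyme that removes N-glycans (266 bp; 1.89, 3.35, 2.43 and 2.36). The *CG7720* region was also among the 10 farthest from control peaks, at 7280 bp. The other 5 were at *HIP-R*, *Sec61gamma*, a subunit of the protein channel of the endoplasmic reticulum, the lysozyme gene *LysE*, *CG3699* and *Cyp4d20*.

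Genes were assigned where a region overlapped the gene or its 3000 bp upstream. This gave 417 of 18277 genes (2.28%), 368 of them protein-coding, and 41 regions were assigned to no gene. Counting the gene body alone there were 266 genes. *Sema1a*, which encodes a transmembrane semaphorin, held 3 regions, 1 of them the copy of 297. *Tie*, *dati*, *heca*, *bun*, the fly TSC22 gene, *Plp*, the pericentrin-like gene of the centrosome, *CAP*, *Ppn*, the papilin gene, *Myo81F*, *CG14439*, *CG17646*, *CG42663*, *lncRNA:CR44964* and *lncRNA:CR45668* were assigned 2 regions each. In *bun*, which spans 91072 bp, the regions had fold enrichments of 1.82, 2.32, 2.40 and 1.82 and of 2.76, 3.74, 2.84 and 2.42. In *Plp*, both regions were within the same Cph peak in replicates 3 and 4. *Myo81F* spans 1965857 bp, so a long gene offers more sequence in which a region can lie.

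Of 37 progenitor and Notch genes, 2 were assigned a region (5.41%, against 2.28% of all genes and 2.635% of protein-coding genes). At *Cph* itself, a region of 240 bp in an intron (X, 7192009 to 7192248), 3900 bp from the nearest start, was held by peaks with fold enrichments of 3.48, 3.36, 2.83 and 2.72. It adjoined a control peak, and a peak over the control was called there in 1 of the 4 replicates. The other was *neur*, which encodes the ubiquitin ligase that lets Notch ligands signal, through an isolated region of 209 bp within its upstream 3000 bp and in the 3′ UTR of *hyx* (3R, 9041938 to 9042146), with values of 1.97, 2.20, 1.98 and 2.22. These values were the most even across replicates of the list genes named here.

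Among 38 cell cycle genes, *Myc* and *Myt1* were assigned a region. In *Myc*, which encodes the growth-promoting transcription factor, a region of 233 bp (X, 3385014 to 3385246) had fold enrichments of 2.14, 3.20, 6.89 and 6.87, higher in replicates 3 and 4 than in 1 and 2. In *Myt1*, which encodes an inhibitory kinase of Cdk1, a region of 375 bp (3L, 5778931 to 5779305) had 3.92, 6.45, 4.76 and 4.24 but 0 peaks over the control. Both adjoined control peaks. Of 34 JAK-STAT and EGFR genes, 2 were assigned a region, namely *Raf*, the kinase of the EGFR cascade (2.46, 2.62, 1.82 and 1.94), and *aop*, which encodes an Ets repressor downstream of it (1.85, 1.31, 1.51 and 1.84). The start nearest to the region assigned to *Raf* (X, 2337274 to 2337520) was that of *Ilp6*.

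Of 34 enteroendocrine genes, *cpx* alone was assigned a region, in the 3′ UTR (402 bp; 1.45, 2.16, 1.40 and 1.88). It encodes complexin, which acts in vesicle release. Of 28 enterocyte genes it was *lab*, the Hox gene of the copper cell region (300 bp; 1.59, 2.42, 1.32 and 1.68), and of 41 autophagy and cell death genes *Atg10*, through a region in the neighbouring *CG18853* in which no read-length window was unique. Among 25 genes of other cell types of the gut, *how*, a gene for an RNA-binding protein of muscle, was assigned a region (1.44, 1.90, 2.38 and 1.60). Across the 7 lists, between 1 and 2 genes per list were assigned a region, while 21 to 38 genes per list held a stretch in peaks of all 4 Cph libraries. These shares of 2.44 to 5.88% rest on 1 or 2 genes each. They are not read as different from the 2.28% of all genes or the 2.635% of protein-coding genes.

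Almost as many regions lacked a GATC site as held one. No GATC was inside 153 of the 312 regions (49.0%), against 39.1% of all stretches and 57.7% of control-only regions. The regions without one lay in GATC fragments with a median length of 340 bp, against 348 bp for such stretches in all, and the centre of a Cph-only region was a median of 108 bp from the nearest GATC, against 104 bp. Their density of 3.37 GATC sites per kb was above the 2.79 of the assembly and close to the 3.24 of all stretches. The median GC content was 44.7%, against 48.3% of all stretches.

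Short motifs were counted on both strands in the 200 bp at the centre of each region. TGATAA, a form of the GATA factor motif, was in 15.1% of Cph-only regions and 10.5% of all stretches, and CAGCTG, an E box, in 14.7 and 12.7%. All 14 regions in 297 held TGATAA and 13 held CAGCTG, and over the 298 regions outside 297 both shares were 11.1%. TGACCA, described for the human relative BCL11A, was in 9.62% of Cph-only regions, 12.4% of all stretches and 7.05% of control-only regions. GAGAG, the motif of GAGA factor, was in 20.2, 25.5 and 26.3%, and GATC itself in 39.7, 46.0 and 27.4%. Motifs were counted separately where they shared bases, and a match is a description of the sequence, not a binding site.

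In the lists called over the control of the same replicate, 232 Cph-only regions (74.4%) overlapped a peak in all 4, compared with 38.1% of all stretches. A further 42 overlapped a peak in 3 lists, 17 in 2, 14 in 1 and 7 in none. These lists come from the same libraries, and the rule already asked for Cph peaks and no control peak. The contrast is thus set in part by the choice and is no independent measurement. The same limit holds for isolated against adjoining regions. Among isolated regions 138 of 169 (81.7%) overlapped such a peak in all 4 lists, and among adjoining ones 68 of 110 (61.8%). The median fold enrichment over the control, where a peak was called, was 2.01, 2.35, 2.22 and 2.11 in replicates 1 to 4.

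Whether such regions recur in libraries that did not choose them was measured by choosing on some replicates and reading the others. Regions that met the rule in replicates 1 and 2 numbered 1309. Of their bases, 53.8 and 41.3% were in peaks of Cph replicates 3 and 4, and 7.17 and 14.6% in peaks of control replicates 3 and 4, a difference of 36.7 percentage points. Regions chosen on replicates 3 and 4 numbered 2000, with 50.9 and 65.9% in peaks of Cph replicates 1 and 2 and 30.1 and 40.5% in peaks of control replicates 1 and 2, a difference of 23.1 points. In both directions the Cph libraries were above the control libraries without overlap. Peaks covered 9.87 to 12.6% of the assembly in Cph libraries and 11.3 to 13% in control libraries. The same shares over other stretches were not measured. The exact permutation test gave a two-sided p of 0.333 each time. This is the smallest that 2 libraries against 2 allow, so the test cannot decide, and the shares are a description.

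With each pair of replicates left out in turn, the Cph library of the pair was higher in all 4 rounds. The shares of bases in peaks were 62.0% against 17.7% in the control of the same number for pair 1 (670 regions), 82.4% against 28.1% for pair 2 (527 regions), 87.1% against 4.36% for pair 3 (374 regions) and 66.6% against 17.3% for pair 4 (612 regions). The 4 rounds share their choosing libraries, so they are given without a test. For control-only regions the differences were in the opposite direction, at -37.9 and -44.4 points when 2 replicates chose them. The held-out Cph libraries were unlike in the second case. Of the bases chosen on replicates 3 and 4, 58.9% were in peaks of Cph replicate 1 and 11.4% in peaks of Cph replicate 2. In control replicates 1 and 2 these shares were 83.7 and 75.4%.

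**Figure D5:**
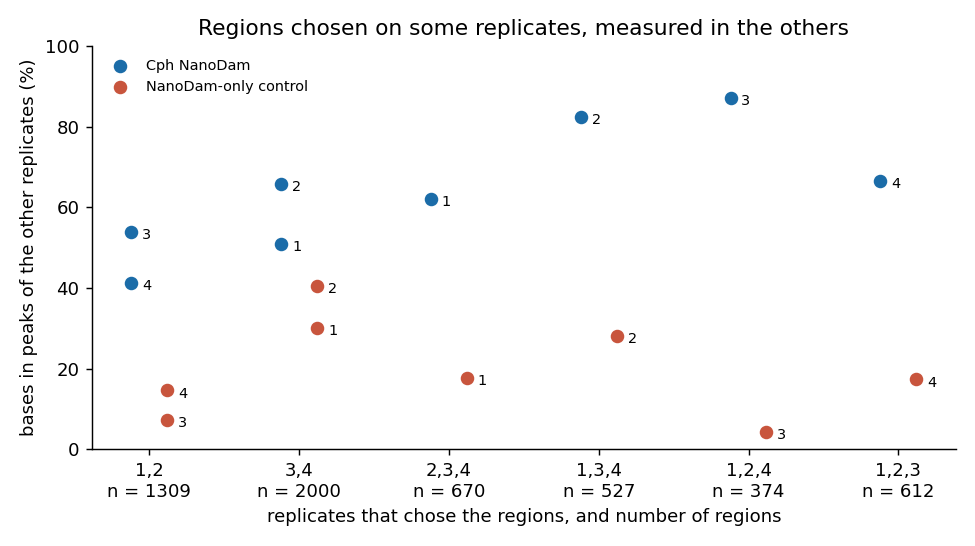
Share of bases (y axis, %) of regions chosen on the replicates named on the x axis that lies in peaks of the replicates left out, with the number of regions. Each point is 1 library, Cph NanoDam (blue) or NanoDam-only control (red), with its replicate number; in each of the 6 rounds the Cph points lie above the control points, between 41.3 and 87.1% against 4.36 and 40.5%.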

How the data were processed

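Peak lists of 4 Cph NanoDam and 4 NanoDam-only control libraries were used, with groups and replicate numbers taken from the labels. According to the methods and the submitters' processing notes, the authors trimmed the single-end 86 bp reads (Trim Galore 0.6.10), aligned them to BDGP6 (bowtie2 2.5.4), retained reads that mapped uniquely and ran MACS2 in broad mode on each library. The file headers give MACS2 2.1.4, a q-value of 0.05, a broad cutoff of 0.1, all duplicates kept, and, without a control library, the larger of the genome mean and the mean within 10000 bp as background. The notes give MACS2 2.2.9.1, and the header was followed.

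The deposited lists hold, for each peak, its fold enrichment (a ratio), −log10 of the p-value and q-value, a score derived from q, and the pileup, a signal that was not scaled for depth and was divided here by the reads of each library. The authors' score was not used. Deposited lists marked as filtered were identical to the unfiltered ones.

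Peaks were marked per base on the release 6 assembly, and the Ensembl 115 annotation of that assembly gave the genes, without transposable elements (18277 genes), which were used separately. Steps were run in Python 3.11.15 with numpy 2.4.6, pandas 2.3.3 and scipy 1.17.1, and checked on simulated lists, in which 110 of 110 planted regions were recovered and 0 others found.

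Regions are not replicates of a condition, and shares over regions are given beside those of all stretches and of control-only regions, without a test. The regions named were those of at least 500 bp, the 10 with the highest of the lowest fold enrichment over the 4 Cph lists, the 10 farthest from any control peak, regions with a protein-coding start (up to 6 examples), genes with 2 or more regions, genes of 7 lists (236 genes), and those next to the length threshold. The members and lists were chosen with earlier results of these data known. The comparison of held-out libraries used exact two-sided permutation tests. After subtracting group means in 54383 bins of 1000 bp, libraries of 1 number correlated (0.395, 0.173, 0.212 and 0.225, each over 0.1), so the numbers were taken as pairs. Across numbers, Cph 3 with control 4 (0.220) and Cph 4 with control 3 (0.248) correlated as highly, so within batch 2 the number does not separate the pairs. The lists give no reads at a position, where depth is therefore unknown and counting error cannot be given.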

Additional observations from a re-analysis of the deposited data

Results flagged for a closer look

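In 4 comparisons, 1 library stood apart from the other 3 of its group by Dixon's ratio of gap to range, out of 64 such comparisons, of which chance alone is expected to pick about 1 in 20. In a region in *heca* (3R, 30317303 to 30317550), the fold enrichment was 14.0 in Cph replicate 2, against 6.58, 7.27 and 7.16 in replicates 1, 3 and 4. This region overlaps a roo copy, and 46.6% of its read-length windows were unique. At the start of *CG14995* it was 3.89 in Cph replicate 2, against 2.37, 2.17 and 2.23, and at the start of *CG4004* it was 4.24 in Cph replicate 3, against 3.11, 3.28 and 3.29. Of the 33 places with the 297 sequence, 22 had a peak in Cph replicate 4, the Cph library with the fewest reads (55557571), against 28, 28 and 29 in the others. The part of depth in this was not tested.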

How the results depend on the processing

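The number of Cph-only regions depended on how it was counted. Against 312, there were 11 at a minimum length of 500 bp, 123 where every Cph peak had a fold enrichment of 2 or more, 830 with 3 of the 4 Cph libraries, 649 with 1 control library allowed, 1309 on replicates 1 and 2 alone, 2000 on replicates 3 and 4 alone, 144 with no control peak within 500 bp and 168 as whole peaks that no control peak touches. Leaving out both libraries of each replicate number in turn gave 374 to 670, with 670 without replicate 1, 612 without replicate 4, 527 without replicate 2 and 374 without replicate 3. The control-only regions, 468 in all, numbered 808 at 100 bp, 63 at 500 bp, 162 at that enrichment, 1154 with 3 of 4 libraries, 1887 with 1 Cph library allowed, 2267 and 2960 on the replicate sets, 102 and 106 by distance and as whole peaks, and 668 (replicate 3), 735 (replicate 2), 829 (replicate 4) and 1831 (replicate 1) with that pair of libraries left out. The share near a start was 34.0% within 1000 bp, against 63.8%, and 69.1% without elements and repeated sequence, a setting chosen after seeing the data. The share adjoining a control peak was 53.9% at a gap of up to 500 bp, against 35.3%, and genes numbered 266 by gene body, against 417. With the replicate numbers as pairs (replicate block), the held-out differences were 36.7 and 23.1 points as without it, with an exact sign-flip p of 0.5, the smallest that 2 pairs allow. Other settings stayed within 1.5 times the count or on the same side, among them 434 regions at 100 bp, 288 at a −log10 q of at least 5 and, chosen after seeing the data, 278 without elements and 273 without repeated sequence. Fragments and peaks near the minimum length, unequal depth within pairs and the lack of reads per position limit what the absence of a control peak can show.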
